A study of Mus musculus with 18 samples.

Results

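The 10 genes described here act on the poly(A) tail or the lifetime of messenger RNA (mRNA). They are Cpeb4, Cpeb2, Fam46c (now named Tent5c), Pabpc1, Pabpc4, Zfp36l1, Zfp36l2, Btg1, Btg2 and Ybx1. They were taken by symbol, and all 10 were found among the 54232 gene identifiers of the count table, of which 30157 had a count in any library. All 10 passed the filter on low counts.

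A poly(A) tail protects an mRNA and helps it to be translated, and the length of the tail is set by enzymes that add and remove adenosines. CPEB proteins bind a U-rich element in the 3′ untranslated region (UTR) and recruit enzymes that lengthen or shorten the tail, ZFP36 proteins bind AU-rich elements and bring in the CCR4-NOT deadenylase, and BTG proteins couple that deadenylase to its targets. FAM46C is a poly(A) polymerase outside the canonical family, PABPC proteins coat the tail, and YBX1 is a cold shock domain protein that packs mRNAs. In the erythroid lineage transcription ceases before the nucleus is expelled, so haemoglobin synthesis comes to depend on stored mRNA, and CPEB4, PABPC4 and ZFP36L2 are all known as regulators of erythroid maturation.

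The method, 4sU-seq, sequences the RNA that cells have just made: 4-thiouridine enters new transcripts, which are then purified. All 18 libraries came from C57BL/6 mouse fetal liver at e12.5-e13.5, with sorted cells cultured for 6 h and then given 500 µM 4-thiouridine for 45 min. The 5 erythroid populations lacked lineage markers (Lin-) and were S0-Low (CD71-, Ter119-), S0-Medium (CD71 medium, Ter119-), S1 (CD71 high, Ter119-), S2 (CD71 high, Ter119 medium) and S3 (CD71 high, Ter119 high). CD71 is the transferrin receptor and Ter119 a surface marker of maturing erythroid cells. The sixth population was sorted as lineage-positive (Lin+), and each population had 3 replicates. The study compared the populations to follow transcription through erythropoiesis.

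Total counts ranged from 9452476 to 40567976 per library, and S0-Low replicate 3 was the shallowest. The summed level of 8 late erythroid markers was 404 to 956 CPM (counts scaled to the effective library size, which is the total count times the TMM factor) in S0-Low and 32400 to 54700 CPM in S3. Although the labels call Lin+ cells erythroblasts too, they had the lowest late erythroid sum (211 to 250 CPM) and the highest sum of 8 neutrophil and granulocyte markers (3300 to 5940 CPM). That sum was 329 to 777 CPM in S0-Low, nearly all of it from Mpo, and at most 2.43 CPM in S3, where 5 of the 8 were at 3 counts or fewer. S0-Low also held 1760 to 2560 CPM of 8 stem and progenitor markers, against 28.4 to 29.8 CPM in S3. In these bulk samples, fewer cells of a type and less RNA per cell cannot be told apart. S2 replicate 3 stood apart from the other S2 libraries, with 15600 CPM of late erythroid markers against 6410 and 6810 CPM and 40.4 CPM of stem and progenitor markers against 254 and 176 CPM.

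Promoter sequence was read for the genes with the largest rises (Cpeb4, Fam46c, Btg2) and for Ybx1, which fell, because the measured RNA is newly transcribed. RefSeq entries of build GRCm38.p6 were found for 7 of the 10 genes, all but Cpeb2, Pabpc1 and Zfp36l2. Each run below holds the 250 bases before the transcript start that the promoter entry uses, 5′ to 3′ on the strand of the gene. For Fam46c, Btg2, Btg1 and Zfp36l1 that start is the outer end of the gene, while for Cpeb4, Ybx1 and Pabpc4 the window lies inside the annotated gene span, downstream of its outermost start. Capitals mark the CACCC-type motif CCNCNCCC on either strand, the kind of element that KLF factors bind. The positions are chr11:31870690-31870939 on the plus strand for Cpeb4, chr3:100489193-100489442 on the minus strand for Fam46c, chr1:134079156-134079405 on the minus strand for Btg2 and chr4:119294514-119294763 on the minus strand for Ybx1.
Cpeb4: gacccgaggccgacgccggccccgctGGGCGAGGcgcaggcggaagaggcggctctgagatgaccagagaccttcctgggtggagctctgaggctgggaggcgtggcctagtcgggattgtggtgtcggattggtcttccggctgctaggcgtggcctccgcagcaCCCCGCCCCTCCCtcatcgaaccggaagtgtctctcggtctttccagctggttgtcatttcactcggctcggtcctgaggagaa
Fam46c: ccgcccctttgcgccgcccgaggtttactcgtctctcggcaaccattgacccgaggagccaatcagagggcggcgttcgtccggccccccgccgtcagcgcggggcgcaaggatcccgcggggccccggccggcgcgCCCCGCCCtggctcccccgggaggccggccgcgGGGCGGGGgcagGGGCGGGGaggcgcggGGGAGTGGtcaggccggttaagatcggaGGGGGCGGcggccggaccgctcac
Btg2: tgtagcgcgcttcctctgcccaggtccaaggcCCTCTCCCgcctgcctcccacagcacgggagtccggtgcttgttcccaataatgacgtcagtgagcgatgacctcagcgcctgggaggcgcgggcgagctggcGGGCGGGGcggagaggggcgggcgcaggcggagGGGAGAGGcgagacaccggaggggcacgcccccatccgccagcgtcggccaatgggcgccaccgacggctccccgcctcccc
Ybx1: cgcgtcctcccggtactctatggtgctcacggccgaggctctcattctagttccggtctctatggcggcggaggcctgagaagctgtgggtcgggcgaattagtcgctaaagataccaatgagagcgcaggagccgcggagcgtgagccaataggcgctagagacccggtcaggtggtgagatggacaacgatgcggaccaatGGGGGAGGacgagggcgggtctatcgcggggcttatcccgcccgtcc

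The motif CCNCNCCC matched at 3 places in the Cpeb4 window, where 2 matches overlap, at 5 in Fam46c, at 3 in Btg2 and at 1 in Ybx1. Of the other windows, it matched at 5 places in Zfp36l1, at 1 in Btg1 and at 0 in Pabpc4. A link between the number of matches and the change in RNA was not tested. It was present in 45.9% of all 32851 promoter windows of the same length. The GATA hexamers AGATAA and TGATAA, searched on both strands, matched in none of the 7 windows, and 16.6% of all windows held at least 1 of them. The 7 windows had a G and C content of 48.4% (Zfp36l1) to 78.8% (Fam46c), against a median of 52.4% over all windows. The sequence TATAAA, found in 12.4% of all windows, lay 29 bases before the start used in Zfp36l1, 26 bases before that in Btg1 and 155 bases before that in Pabpc4.

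Transcripts of the CPEB pair were searched for the letters of the U-rich element that CPEB proteins bind. In the last 500 bases of the longest annotated 3′ UTR, Cpeb4 held TTTTAT 4 times and Cpeb2 8 times, and this sequence occurred in 38.2% of the 13171 genes with at least 500 bases of 3′ UTR, with a mean of 0.561 matches. Examples are shown with the element in capitals, followed by a copy of the AU-rich sequence TATTTAT, which 14.5% of genes held.
Cpeb4 element: aattcattTTTTATtaaagtca
Cpeb2 element: acccatgcTTTTATggacacta
Cpeb4 AU-rich match: caaatgacTATTTATaccagtat
Zfp36l1 held TTTTAT 2 times and TATTTAT 1 time, and Btg2 held TTTTAT 1 time. Fam46c, Zfp36l2 and Btg1 held neither sequence in that window. The 3′ UTRs of Pabpc1, Pabpc4 and Ybx1 were shorter than 500 bases (418 to 439) and were not searched.

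Between S0-Low and S3, 7 of the 10 genes changed. Cpeb4, Fam46c, Btg2, Pabpc4 and Pabpc1 rose, and Zfp36l2 and Ybx1 fell, while Cpeb2, Zfp36l1 and Btg1 did not pass the test. Of all 16555 genes tested, 13.4% rose and 22.4% fell in this comparison (edgeR quasi-likelihood test, adjusted p under 0.05). The median log2 fold change was 1.71 over the 10 genes and -0.54 over all genes tested. Every one of the 7 kept its direction and its call when libraries were scaled by RLE factors or by library totals in place of TMM factors. These moved the median of all genes to -0.68 and -1.36 and that of the 10 genes to 1.59 and 0.81, and with library totals 1156 genes rose and 6228 fell, against 2220 and 3712 with TMM. With library totals the log2 fold changes of the genes that rose were also smaller, at 6.76 for Fam46c, 5.24 for Cpeb4, 4.3 for Btg2, 1.1 for Pabpc4 and 0.78 for Pabpc1, and those of Zfp36l2 (-3.74) and Ybx1 (-2.55) larger in size. Leaving out the libraries numbered 2 in every population took Pabpc1 and Ybx1 over the threshold (adjusted p = 0.053 and 0.108).

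**Figure D1:**
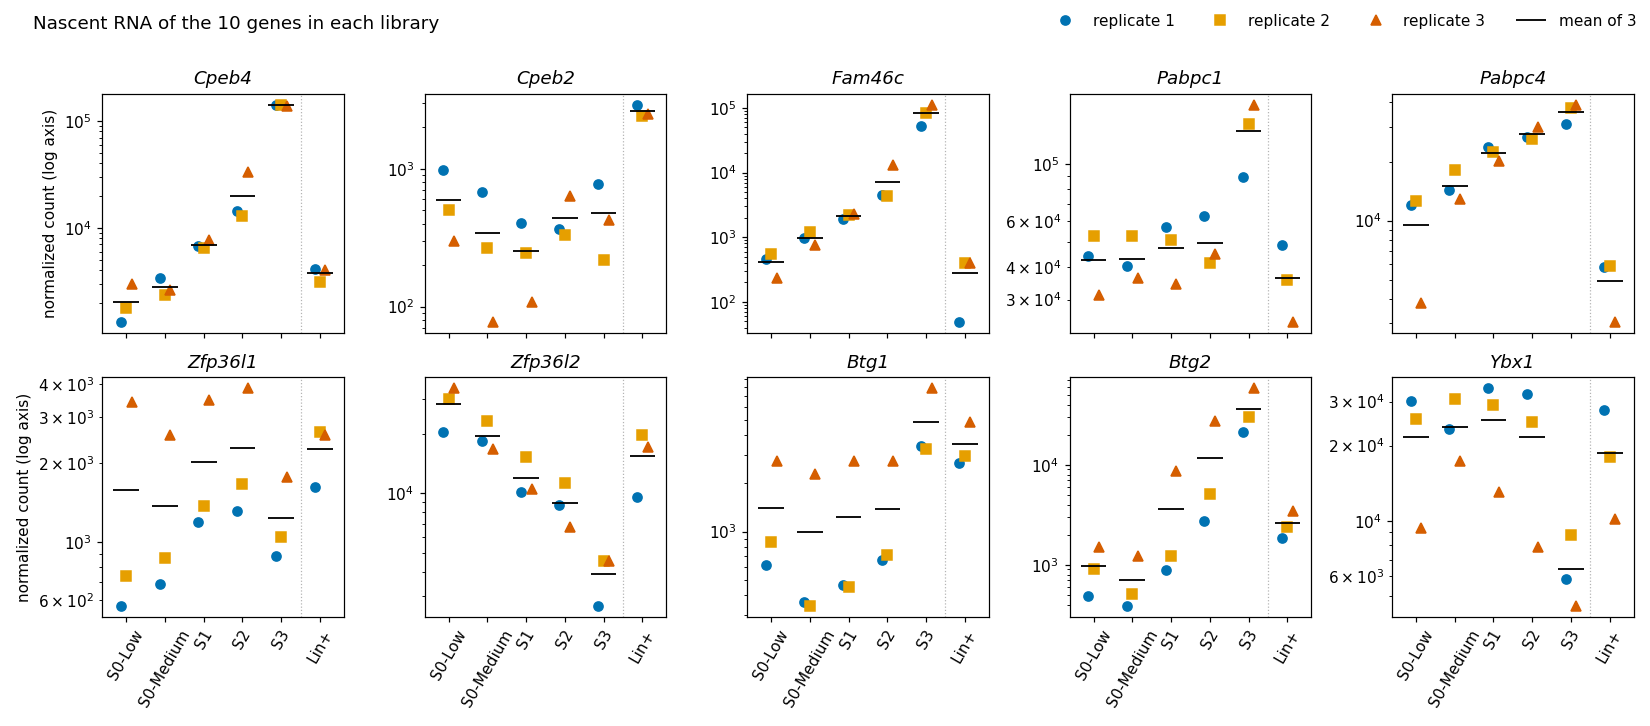
Normalized nascent RNA count (vertical log axis, scale differing between panels) of each of the 10 genes in all 18 libraries, by population and replicate number; black lines are means of 3. Mean Cpeb4 and Fam46c went from 2036 and 417 in S0-Low to 140212 and 82496 in S3, while Zfp36l2 went from 28280 to 3907.

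Cpeb4 (chr11:31870104-31935635), the CPEB protein known to repress translation of many mRNAs late in erythropoiesis, had 1311, 1785 and 3012 normalized counts in the S0-Low libraries. The S3 libraries held 140431, 142407 and 137797, the closest agreement of any of the 10 genes in any population (coefficient of variation 1.65%). S0-Medium held 2341 to 3369, S1 6460 to 7705 and S2 12863 to 32979, so that only S0-Low and S0-Medium overlapped among the erythroid populations. Lin+, with 3142 to 4166, lay above S0-Low and overlapped S0-Medium. The rise to S3 was 68.9-fold, with a log2 fold change of 6.11 ± 0.47 (SE, adjusted p = 1.1e-06). Per kilobase of its longest transcript, Cpeb4 was 7th of the 10 genes in S0-Low (10.1 ± 4.36 CPM per kb, SD, n = 3) and 2nd in S3 (695 ± 11.5), behind Pabpc1.

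Cpeb2 (chr5:43225349-43289724), a close relative of Cpeb4, showed no such rise. Its S0-Low libraries held 985, 499 and 298 normalized counts and its S3 libraries 782, 219 and 423. The groups overlapped, and the log2 fold change of -0.33 ± 0.8 did not pass (adjusted p = 0.771). S0-Medium, S1 and S2 held 77 to 682, 108 to 407 and 329 to 631, so no neighbouring pair of erythroid populations was separate. In Lin+ it held 2928, 2399 and 2492, above every erythroid library. Of the other relatives, Cpeb3 rose from a mean of 643 to 11748 (log2 fold change 4.2 ± 0.91, adjusted p = 0.0026), while Cpeb1 had means of 153 and 20.4 and did not pass (adjusted p = 0.16).

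Fam46c (chr3:100468057-100489192) had the largest fold change of the 10. It held 456, 557 and 236 normalized counts in S0-Low and 52714, 82153 and 112621 in S3. No neighbouring pair of erythroid populations overlapped along the series, with 755 to 1184 in S0-Medium, 1899 to 2323 in S1 and 4319 to 13044 in S2. The log2 fold change was 7.62 ± 0.58 (adjusted p = 1.1e-06), a ratio of means of 198. Lin+ replicate 1 held 48.5 and the other Lin+ libraries 399 and 405, below or within the S0-Low range. The related polymerase gene Fam46a went the other way, from a mean of 665 to 24.5, with 0 counts in S3 replicates 1 and 2 and its highest mean, 4189, in Lin+.

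Of the genes for cytoplasmic poly(A)-binding proteins, Pabpc1 (chr15:36595658-36609581), the general form, had the highest level per kilobase of the 10 genes in every population. Its libraries held 44322, 52962 and 31124 normalized counts in S0-Low and 88867, 142789 and 169507 in S3. Means of 42803 to 49678 in S0-Low, S0-Medium, S1 and S2 came from overlapping libraries, and S3 lay above all of them. Lin+ held 24523 to 48618, overlapping the 4 lower populations. The log2 fold change from S0-Low to S3 was 1.64 ± 0.34 (adjusted p = 0.00195).

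Pabpc4 (chr4:123282303-123298925) instead had its populations in order from S0-Low to S3. It held 11953, 12583 and 3799 normalized counts in S0-Low, 12875 to 18042 in S0-Medium, 20037 to 23658 in S1, 25966 to 30055 in S2, and 31071, 37367 and 39014 in S3, with no overlap between neighbours. Lin+ held 3038 to 5877, overlapping S0-Low. The log2 fold change from S0-Low to S3 was 1.92 ± 0.37 (adjusted p = 0.00104), and without S0-Low replicate 3, its lowest library, it was 1.49 (adjusted p = 0.00147). Of the 31-base words in Pabpc4 transcripts, 46.8% also occur in Gm10110, a near copy of it with 41 to 933 counts per library against 1430 to 30478 for Pabpc4, so the split of reads between them is uncertain. In the annotation 2 small nucleolar RNA genes overlap Pabpc4, a pseudogene overlaps Cpeb4 and a long noncoding RNA gene overlaps Cpeb2, and the other 7 genes overlap no annotated gene.

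Zfp36l2 (chr17:84183924-84187947), whose protein binds AU-rich elements and is known to keep early erythroid progenitors from maturing, fell between S0-Low and S3. Its S0-Low libraries held 20589, 30057 and 34195 normalized counts and its S3 libraries 2676, 4537 and 4508. The groups did not overlap, and the means of S0-Medium, S1 and S2 lay between (19524, 11994 and 8924). S0-Medium overlapped S0-Low and S1 overlapped S2, while every S1 library lay below every S0-Medium library. The log2 fold change was -2.86 ± 0.34 (adjusted p = 2.64e-05), a 7.24-fold difference of means. Neutrophil, stem and progenitor marker levels fell over the same populations, and Lin+ held 9571, 19706 and 17255 counts of Zfp36l2. Their part in this fall was not tested.

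Zfp36l1 (chr12:80107760-80113013) did not follow Zfp36l2. It held 569, 740 and 3432 normalized counts in S0-Low and 886, 1042 and 1770 in S3, with 690 to 3861 over S0-Medium, S1 and S2 and 1625 to 2618 in Lin+. All neighbouring populations overlapped, and the log2 fold change from S0-Low to S3 was -0.36 ± 0.7 (adjusted p = 0.713). Without S0-Low replicate 3 the estimate was 0.87, so its sign rested on that library. Zfp36, the founding member of the family, had means of 470 in S0-Low and 719 in S3 and did not pass (adjusted p = 0.518).

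Btg2 (chr1:134074865-134079155), an antiproliferative gene induced by p53 and by growth signals, rose between S0-Low and S3. It held 489, 902 and 1511 normalized counts in S0-Low, 389 to 1223 in S0-Medium, 883 to 8637 in S1, 2715 to 27142 in S2, and 21251, 29910 and 58300 in S3. S3 did not overlap S0-Low, although it overlapped S2. Lin+ held 1877 to 3495, above S0-Low. The log2 fold change from S0-Low was 5.24 ± 1.04 (adjusted p = 0.00136), a ratio of means of 37.7. The summed level of 9 immediate early genes was also highest in S3, at 662 to 965 CPM against 90.7 to 261 CPM in S0-Low, and its part in the rise of Btg2 was not tested.

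Btg1 (chr10:96617001-96622813) held 622, 858 and 2760 normalized counts in S0-Low and 3413, 3283 and 7870 in S3. S0-Medium, S1 and S2 ranged from 343 to 2774 and Lin+ from 2683 to 4869. Every S3 library was above every S0-Low library, yet the spread within each group was large and the log2 fold change of 1.78 ± 0.91 did not pass (adjusted p = 0.133). It passed without the libraries numbered 3 (2.18, adjusted p = 0.000796) and with the replicate number as a block (adjusted p = 0.000237). With a single replicate left out, the log2 fold change ranged from 1.23 to 2.67. Tob1, which also binds the deadenylase, rose from a mean of 298 to 808 (log2 fold change 1.44 ± 0.52, adjusted p = 0.0402; 0.55 and not passed with library totals), and Btg3 did not pass (0.05 ± 0.4, adjusted p = 0.931).

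Ybx1 (chr4:119277327-119296265) was second to Pabpc1 per kilobase in each population except S3, where it was 6th. It held 30080, 25503 and 9326 normalized counts in S0-Low and 5854, 8772 and 4567 in S3, which did not overlap. S0-Medium, S1 and S2 held 17396 to 30631, 13094 to 33950 and 7849 to 32273, all overlapping S0-Low, and Lin+ held 10148 to 27887. The log2 fold change from S0-Low to S3 was -1.76 ± 0.53 (adjusted p = 0.0188). The call was lost without S0-Low replicate 1 (adjusted p = 0.0603), S3 replicate 1 (0.0562) or S3 replicate 3 (0.0698), and also without the libraries numbered 1 in every population (0.188). Its relative Ybx3 rose from a mean of 7490 to 17342 (1.21 ± 0.33, adjusted p = 0.0111; 0.36 and not passed with library totals).

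In the main edgeR test, S2 to S3 was the only step between neighbouring populations with a call. There, Cpeb4, Fam46c and Pabpc1 rose and Zfp36l2 and Ybx1 fell, against 3.26% of all genes higher and 6.09% lower (540 and 1008 genes, or 288 and 2264 with library totals). With RLE factors Zfp36l2 (adjusted p = 0.0551) and Ybx1 (0.0501) no longer passed. The means differed 6.99-fold for Cpeb4 (log2 fold change 2.81 ± 0.4, adjusted p = 0.000804) and 11.4-fold for Fam46c (3.51 ± 0.48, adjusted p = 0.000621). The changes were smaller for Pabpc1 (1.43 ± 0.34, adjusted p = 0.0165), Zfp36l2 (-1.19 ± 0.32, adjusted p = 0.0301) and Ybx1 (-1.76 ± 0.53, adjusted p = 0.0499). Without S2 replicate 3 the log2 fold change of Fam46c was 4.23. Btg1 lay 3.52-fold higher in S3 with no overlap (adjusted p = 0.213) and Btg2 3.13-fold higher with overlap (adjusted p = 0.245). Both passed without the libraries numbered 3 (adjusted p = 0.00146 and 0.00169), and Btg2 also without S2 replicate 3 (3.22, adjusted p = 0.0337). With a single replicate left out, the log2 fold change of Btg1 ranged from 1.27 to 2.81, against 1.82. Pabpc4 lay 1.3-fold higher in S3 with no overlap and did not pass. The number that passed was 3 without S2 replicate 1 or without S3 replicate 1, 2 without S2 replicate 2 or without S3 replicate 3, and 0 without the libraries numbered 1 in every population.

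**Figure D2:**
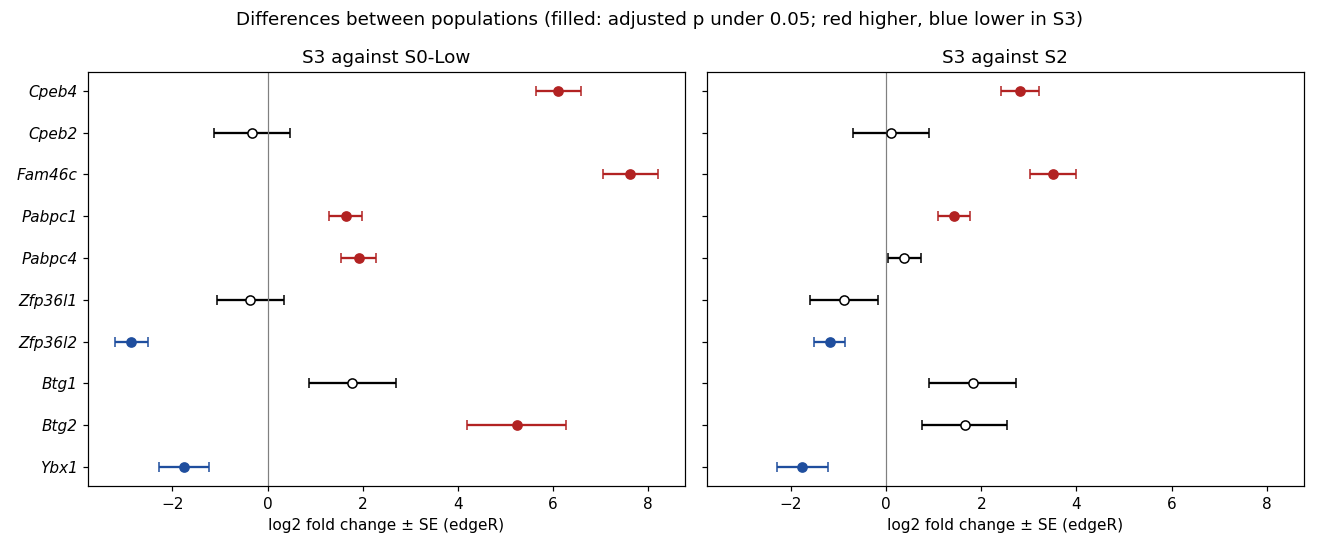
Log2 fold change (horizontal axis) with its standard error for the 10 genes, S3 over S0-Low (left) and over S2 (right), from 15 erythroid libraries; filled points passed an adjusted p of 0.05, red higher and blue lower in S3. On the left 5 genes are higher and 2 lower, and on the right 3 are higher and 2 lower.

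In the main test no gene of the 10 passed at any of the 3 earlier steps, where edgeR called 0% of all 16555 genes. Without the filter on low counts, Cpeb4 and Btg2 passed between S1 and S0-Medium, and Cpeb4 and Fam46c between S2 and S1. At an unadjusted p under 0.05, 1 of the 10 and 539 of all genes differed between S0-Medium and S0-Low, 4 and 1135 between S1 and S0-Medium, and 2 and 667 between S2 and S1. DESeq2 called 31 genes higher and 24 lower, 31 and 375, and 5 and 154 at these steps, none of them among the 10. With the replicate number as a block, edgeR called 22 higher and 1 lower, 28 and 29, and 0 and 0, and again none of the 10. Fam46c was higher in 3 of 3 same-numbered pairs at every step without overlap, by 2.33-fold, 2.21-fold and 3.39-fold in turn (adjusted p = 1, 0.554 and 0.576). Without S2 replicate 3 its log2 fold change from S1 to S2 was 1.03 in place of 1.76. Cpeb4 was higher in 3 of 3 pairs in S1 than in S0-Medium (2.5-fold, adjusted p = 0.279) and in S2 than in S1 (2.88-fold, adjusted p = 0.576), both without overlap. Pabpc4 was higher and Zfp36l2 lower in 3 of 3 pairs at every one of these steps. Btg2 and Zfp36l1 were higher in 3 of 3 pairs from S0-Medium to S1 and from S1 to S2. At single steps Btg1 was higher in S1, Ybx1 lower in S2, and Cpeb2, Btg1 and Btg2 lower in S0-Medium, each in 3 of 3 pairs. The share of all genes with such pairs was not counted.

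Over the 5 erythroid populations together, 6 of the 10 genes differed somewhere, against 24.6% of all genes. Without the libraries numbered 2 in every population 3 passed, the range over the other alternatives being 5 to 8. With all libraries they were Cpeb4, Fam46c, Pabpc1, Pabpc4, Zfp36l2 and Btg2. Ybx1 had an adjusted p of 0.0716 in this test.

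The Lin+ comparisons use the same S3 and S0-Low libraries. Lin+ was lower than S3 in Cpeb4 (log2 fold change -5.21 ± 0.42), Fam46c (-8.18 ± 0.78), Btg2 (-3.81 ± 0.92), Pabpc4 (-2.87 ± 0.38) and Pabpc1 (-1.88 ± 0.34), with adjusted p from 1.42e-07 to 0.00336. It was higher in Cpeb2 (2.46 ± 0.73, adjusted p = 0.0121), Zfp36l2 (1.99 ± 0.34, adjusted p = 0.000187) and Ybx1 (1.55 ± 0.53, adjusted p = 0.0274). Without the libraries numbered 2 in every population the Cpeb2 call was lost (adjusted p = 0.153). The Ybx1 call was lost without the libraries numbered 1 (adjusted p = 0.255) or 2 (0.115) in every population, and without S3 replicate 1 (adjusted p = 0.0771), S3 replicate 3 (0.0971) or Lin+ replicate 1 (0.121). Of 17755 genes tested with all 18 libraries, 28.2% were higher and 14.1% lower in Lin+ (5005 and 2496 genes, or 7126 and 1338 with library totals). Between Lin+ and S0-Low none of the 10 passed with edgeR, 4 had an unadjusted p under 0.05, and 0.496% of all genes were higher and 0.220% lower. Cpeb2 showed the largest of these differences, at 2.13 ± 0.72 (adjusted p = 0.232), and it passed with DESeq2 (2.23, adjusted p = 0.0463).

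The balance within related pairs was compared in each library as the log2 ratio of CPM plus a pseudocount of 0.5 CPM, so that library scaling largely cancels. Cpeb4 to Cpeb2 went from 0.41, 1.81 and 3.27 in S0-Low to 7.46, 9.24 and 8.29 in S3. Zfp36l2 to Zfp36l1 went from 5.14, 5.31 and 3.31 to 1.58, 2.11 and 1.34, and Btg2 to Btg1 from -0.34, 0.07 and -0.86 to 2.63, 3.18 and 2.89. In these 3 pairs the S3 and S0-Low libraries did not overlap, and the means differed by 6.5, -2.91 and 3.28. Each had p = 0.1 in a two-sided exact permutation test, the smallest that 3 libraries against 3 can give, and 0.133 after adjustment over the 4 pairs.

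Pabpc4 to Pabpc1 was the exception, with a mean of -2.33 in S0-Low and -1.86 in S3 and a difference of 0.47 (exact permutation p = 0.5, adjusted p = 0.5). The ratio was -0.83 ± 0.36 (SD, n = 3) in S2, so its highest mean lay in S2 and not in S3. Every S2 library (-1.24, -0.67 and -0.58) was above every S3 library (-1.52, -1.93 and -2.12).

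**Figure D3:**
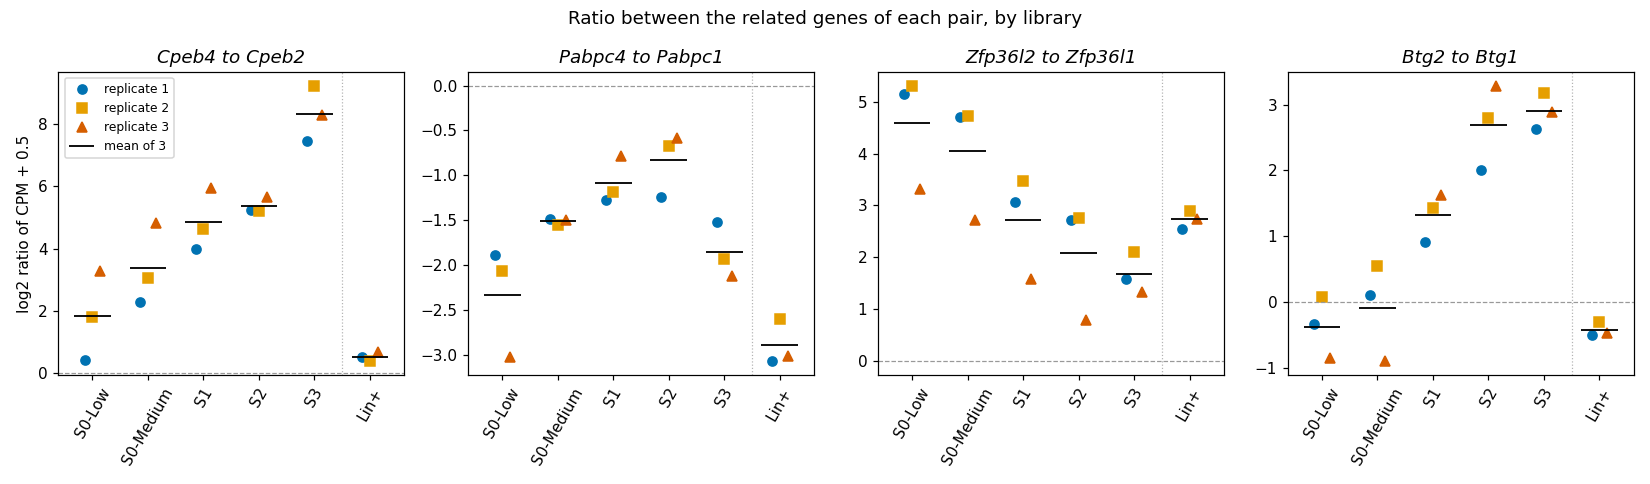
Log2 ratio of CPM + 0.5 (vertical axis) between the genes of each related pair in every library, by population and replicate number; black lines are means of 3 and the dashed line marks equal levels. Cpeb4 to Cpeb2 and Btg2 to Btg1 are higher in S3 than in S0-Low, Zfp36l2 to Zfp36l1 is lower, and Pabpc4 to Pabpc1 is highest in S2.

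Replicate 3 stood apart from replicates 1 and 2 in several of the 10 genes. In all 6 populations replicate 3 was the highest library for Btg1 and Btg2 and the lowest for Ybx1, and in 5 of 6 it was the highest for Zfp36l1. Of all genes tested, 3.48% had replicate 3 highest in all 6 populations and 4.66% had it lowest. In 5 or more populations, 9.71% of all genes had replicate 3 highest and 13.2% had it lowest. Of the other replicates, replicate 1 was the highest for Cpeb2 and replicate 2 for Zfp36l2, each in 5 of 6 populations. On average over the populations, replicate 3 stood 1.87 (Btg1), 1.75 (Btg2) and 1.36 (Zfp36l1) above the mean of replicates 1 and 2 on the log2 scale, and -1.18 from it for Ybx1. The spread was widest in S1 for Btg2, where replicates 1 and 2 held 883 and 1240 and replicate 3 held 8637. Without the libraries numbered 3, 8 of the 10 genes passed between S3 and S0-Low, Btg1 being added. Calls over all genes were not counted in that fit. The summed late erythroid markers were highest in replicate 3 in all 5 erythroid populations and lowest there in Lin+, and the immediate early sum was lowest in replicate 3 in every population except S2. Their part in these differences was not tested. What a shared replicate number stands for is not given in the sources used here.

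**Figure D4:**
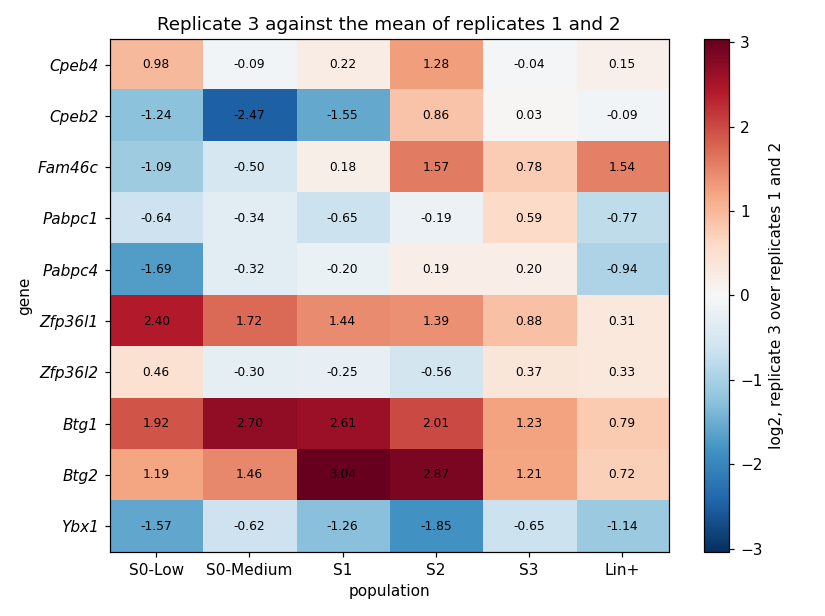
Log2 difference of replicate 3 from the mean of replicates 1 and 2 (colour and printed value) for each gene (rows) in each population (columns). Btg1, Btg2 and Zfp36l1 are above 0 in all 6 populations and Ybx1 is below 0 in all 6.

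The gene whose levels over the 15 erythroid libraries were most like those of each of the 10 was found by Pearson's r of log2(CPM + 0.5), given as a description, since libraries of a population share their state. Cpeb4 was most like Abcg2, a transporter of haem and porphyrins (r = 0.992), Pabpc4 like Tgm2 (0.986), Fam46c like Tom1l1 (0.989), Btg2 like Cdc25b, a cell cycle phosphatase (0.989), and Ybx1 like Hsp90ab1, a chaperone (0.992). Btg1 was most like Hbp1 (0.979), Zfp36l2 like Tnip2 (0.975), Pabpc1 like Psme3 (0.96), Zfp36l1 like Bcl2l11, a pro-apoptotic gene (0.959), and Cpeb2 like Sorl1 (0.826). The lowest of these r belonged to Cpeb2, which had few counts and little difference between populations.

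Further genes of mRNA decay and tail metabolism were counted on 7 lists. Of 132 such genes 124 were tested, and 23 rose and 18 fell between S0-Low and S3, with a median log2 fold change of 0.06, where 13.4% of all genes rose and 22.4% fell. With RLE factors 16 rose and 20 fell, and with library totals 3 rose and 47 fell, so the balance between rises and falls depended on the scaling. From S2 to S3, 3 rose and 2 fell, where 3.26% and 6.09% of all genes did, and with library totals 1 rose and 20 fell. Of the 18 that fell between S0-Low and S3, 6 had a mean under 100 normalized counts in S3, as had both that fell from S2. These 6 (Fam46a, Nanos3, Pabpc4l, Celf2, Pcbp4 and, named after its values were seen, Igf2bp2) passed the filter on low counts through populations where they were high, so their levels are a description and the counts of falls lend no support. Of the rising list genes that are named here, Zcchc6 and Cpeb3 still passed with library totals.

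Among deadenylases and their adaptors 5 of 20 rose and 3 fell. Pan2, a deadenylase subunit, rose (1.48 ± 0.33, adjusted p = 0.0029; 0.66 and not passed with library totals), and Cnot6l, a catalytic subunit of CCR4-NOT, fell (-2.43 ± 0.43, adjusted p = 0.000651). Nanos3, counted among those that fell, had means of 161 in S0-Low and 3.06 in S3. Of 10 poly(A) and nucleotidyl polymerases 2 rose, and the 1 counted as lower was Fam46a. Zcchc6, which adds uridines to RNA ends, rose (2.55 ± 0.61, adjusted p = 0.00476), as did Papd7 (1.09 ± 0.37, adjusted p = 0.0316). With library totals Papd7 did not pass (0.19). Of 13 poly(A)-binding proteins and partners 2 rose and 2 fell. Larp1 (1.17 ± 0.41) and Larp4b (1.15 ± 0.29) rose, but neither passed with library totals (0.35 and 0.32). Those that fell were Paip1, a partner of PABPC1 (-1.37 ± 0.31, adjusted p = 0.00364), and Pabpc4l, with a mean of 181 in S0-Low and 0 in S3.

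Of 19 decapping and 5′ to 3′ decay genes 2 rose, Lsm14a (0.98 ± 0.27, but 0.12 with library totals) and Eif4enif1 (0.85 ± 0.26, but -0.01 with library totals). The decapping enzyme Dcp2 was the 1 that fell (-1.2 ± 0.38, adjusted p = 0.0232). None of 15 exosome and SKI complex genes rose and 3 fell, among them Exosc1 (-2.09 ± 0.64, adjusted p = 0.0192) and Exosc5 (-1.49 ± 0.54, adjusted p = 0.0419). Of 15 nonsense-mediated decay genes 6 rose and none fell, with Smg9 (1.19 ± 0.3, adjusted p = 0.0069) and Upf1 (1.15 ± 0.32, adjusted p = 0.0128) the largest, but with library totals none rose and 4 fell.

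Of 32 other 3′ UTR binding proteins 6 rose and 8 fell, of which 3 had a mean under 100 in S3. Cpeb3 was among those that rose. Among those that fell, Celf2 had means of 8400 in S0-Low and 6.68 in S3, and Pcbp4 had means of 844 and 0.

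**Figure D5:**
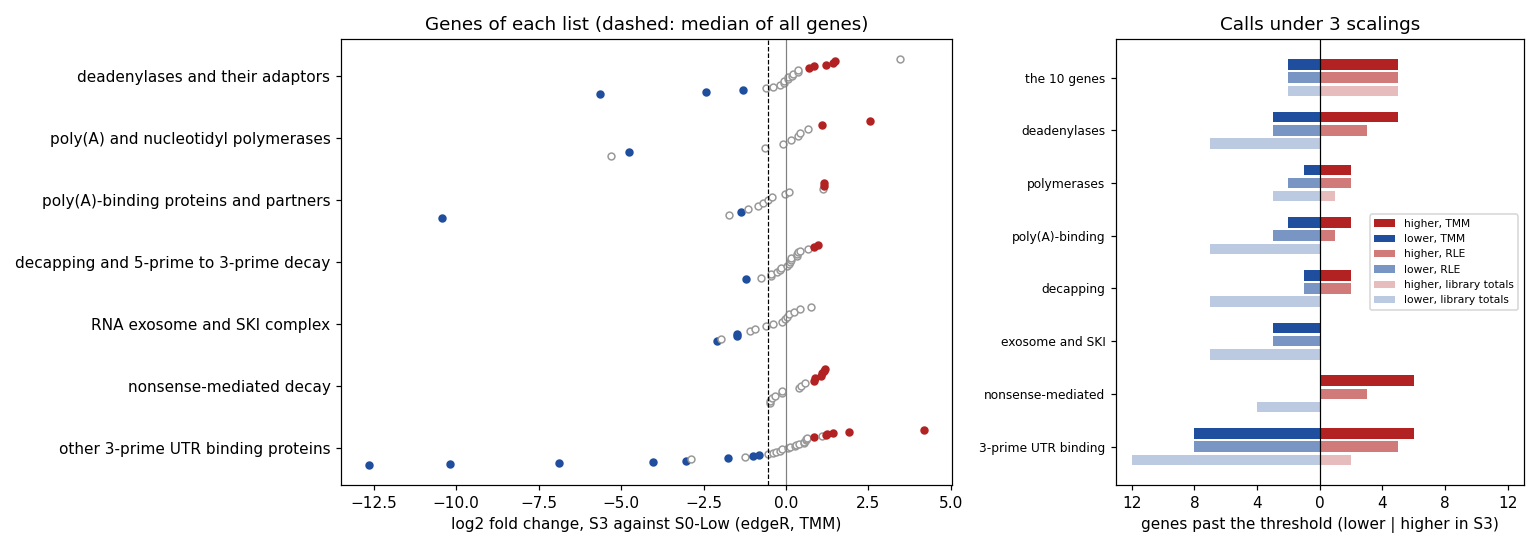
Left, log2 fold change (horizontal axis, S3 over S0-Low) of each tested gene on the 7 lists, filled where it passed (red higher, blue lower), with the median of all genes (-0.54) dashed. Right, the number of genes higher and lower under TMM, RLE and library-total scaling, where the 10 genes give 5 higher and 2 lower each time and the lists do not hold their balance.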

How the data were processed

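The 10 genes, the lists and the tests were chosen with earlier results of these data known. Per the labels, the authors counted reads with kallisto 0.43.0 on build GRCm38 and deposited whole-number counts per gene, not normalized and not pooled. The transcript set and strand setting are not given in the sources used here. The kit was stranded, PCR copies were not told apart by molecular identifiers, and kallisto shares reads among near-identical transcripts. The study calls its replicates biological, but what was separate between them is not given in the sources used here, and p-values measure only the spread between these samples.

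Populations and replicate numbers were taken from the labels. Counts were tested with edgeR 4.0.16 (R 4.3.3): TMM factors, filterByExpr by population, quasi-likelihood test, two-sided, Benjamini-Hochberg adjustment over all genes tested, threshold 0.05. The 15 erythroid libraries entered 1 fit and all 18 entered the Lin+ comparisons. The common biological coefficient of variation was 0.795 and 0.771. For display, each normalized count is the count divided by its library's effective size and multiplied by the mean of those sizes over 18 libraries. CPM in the text use effective sizes. A floor of 3 counts, here per library total and not per effective size, was 0.317 CPM in the shallowest library and 0.0739 CPM in the deepest, counting error only. Ratios of related genes were compared by exact permutation in scipy 1.17.1. The fit was run on simulated counts drawn independently for each library. These held no deviations shared by same-numbered libraries, so the run cannot speak for data that have them.

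The further genes named were at most 2 per list and direction with the largest change from S0-Low to S3 among those that passed and averaged 100 or more normalized counts where they were higher, relatives of the 10, and the most alike gene of each. The list gene Exosc6 was not matched. A gene that the rule names is not reported here. At the 3 steps up to S2, same-numbered libraries deviated together (correlation of deviations from population means over genes 0.2 to 0.37 in every pair). Same-numbered pairs are therefore counted there, and the replicate number entered a block as an alternative. The main test used population only, so its p-values are unpaired. Alternatives were DESeq2 1.42.0, RLE factors, library totals, no filter, a minimum of 10 counts in each library compared, the replicate block, robust empirical Bayes, 13 globin genes left out, only the libraries compared, all 18 libraries, pseudocounts of 0.1 and 5 CPM, and each replicate left out. Leaving out all libraries of a number was added after seeing the data. Gene coordinates and promoters are RefSeq GRCm38.p6. Transcript lengths, shared words and 3′ UTRs come from GENCODE vM1 protein-coding transcripts.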

Additional observations from a re-analysis of the deposited data

How the results depend on the processing

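The 7 calls between S3 and S0-Low numbered 5 to 8 over all alternatives, and Cpeb4, Fam46c, Btg2, Pabpc4 and Zfp36l2 passed under every alternative run.

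Between S2 and S3 the 5 calls became 3 with RLE factors, 1 with only the 6 libraries compared, 0 and 2 without the libraries numbered 1 and 2, and 2 to 6 with a replicate left out. Without a filter, 2 genes passed between S1 and S0-Medium (Cpeb4 and Btg2) and 2 between S2 and S1 (Cpeb4 and Fam46c). Between Lin+ and S0-Low, 1 passed with DESeq2, 1 with the replicate block, 1 with only the 6 libraries compared and 3 without the libraries numbered 3. The test over 5 populations called 3 without the libraries numbered 2.

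Among the further genes, the 41 calls between S3 and S0-Low became 27 with the minimum of 10 counts, 20 with only the 6 libraries compared, 11 without the libraries numbered 1 and 11 without those numbered 2, and 22 to 36 with a replicate left out. Between S2 and S3 the 5 calls became 17 with DESeq2, 21 with library totals, 13 without a filter, 26 with the replicate block, 9 with that minimum, 0 with only the 6 libraries compared, 11 with all 18 libraries, 0, 0 and 24 without the libraries numbered 1, 2 and 3, and 2 to 14 with a replicate left out. Over all genes, the calls between S2 and S3 were 540 higher and 1008 lower in the main test. They were 1330 and 2083 with DESeq2, 288 and 2264 with library totals, and 1208 and 1866 with the replicate block. Calls over all genes under the other settings of this paragraph were not counted. The cause was not tested.

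The sign turned for Cpeb2 (0.18 without S0-Low replicate 1, 0.02 without S3 replicate 2) and Zfp36l1 (0.04 with the replicate block, 0.87 without S0-Low replicate 3, 0.56 without the libraries numbered 3), neither of which passed, and their ranges with a replicate left out were -0.9 to 0.18 and -0.83 to 0.87. With the replicate block Btg1 passed between S3 and S0-Low (2.01, adjusted p = 0.000237) and between S3 and S2 (2.09, adjusted p = 0.000598), as did Btg2 between S3 and S2 (2.2, adjusted p = 0.00159), and 8 and 7 of the 10 genes passed, while over all 16555 genes the block called 2640 higher and 4374 lower between S3 and S0-Low and 1208 and 1866 between S3 and S2. In the comparisons with S3 or Lin+ the lowest correlation of same-numbered deviations was 0.01 to 0.09, below the 0.2 to 0.37 of the earlier steps. Still, 6 of 6 libraries correlated best with their own number in each of these comparisons except S3 against S0-Low, where 4 of 6 did. The main test took no account of this. With the block no call among the 10 changed at the 3 earlier steps. Leaving out a replicate moved the pair ratios to 5.79 to 7.23 (Cpeb4 to Cpeb2), 0.12 to 0.69 (Pabpc4 to Pabpc1), -3.55 to -2.55 (Zfp36l2 to Zfp36l1) and 3.03 to 3.5 (Btg2 to Btg1), and with 3 pairs the exact sign-flip p cannot go below 0.25.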
